A study of Mus musculus with 23 samples.

Results

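The genes described here encode the lysosome's proton pump, its hydrolases and a few of its membrane and regulatory proteins, 43 genes in all, taken by symbol from the 20308 genes of the deposited table of a mouse ventral prostate study. Of these, 20 encode subunits or accessory proteins of the pump, 18 encode hydrolases (9 cathepsins and 9 other enzymes), and 5 are Lamp1, Lamp2, Mcoln1, Psap and Tfeb. All 43 were in the table. A filter on low counts passed 42 of them, and only Atp6v0d2 stayed below it.

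Lysosomes are the acidic compartments in which cells break down proteins, glycans and lipids. Their acidity comes from the vacuolar ATPase, a rotary pump whose peripheral V1 sector splits ATP and whose V0 sector, set in the membrane, carries the protons. Most lysosomal hydrolases work only in this acid, and many of their genes hold the sequence CACGTG near the start site, which TFEB and related factors bind. In the ventral prostate, which secretes into the seminal fluid and shrinks after castration, autophagy and lysosomal breakdown are known parts of that regression.

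The 23 libraries, of RNA selected with oligo-dT beads, came from ventral prostates of C57BL/6J mice kept since before birth on a folic acid enriched diet (24 mg/kg) or a control diet (4 mg/kg). Mice were taken intact at 7 weeks of age, or were castrated at that age and taken 3 or 10 d later. Each combination of diet and state had 4 libraries, except the control diet at 3 d, which had 3. The labels speak of 4 mice a group, so each library was taken as 1 mouse, and p-values measure the spread between these libraries. They name neither a sham operation nor litters. Castrated mice were 3 or 10 d older than intact mice, so loss of androgen, surgery and age cannot be told apart, and neither can diet and litter.

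The libraries held 6.38 M to 15.6 M reads. Levels are given as CPM, read counts scaled to library size and TMM factors, and changes as log2 changes between groups with their standard error (SE), from edgeR's quasi-likelihood test over the 13412 genes that passed the filter. A gene is called when its p, adjusted by the Benjamini-Hochberg method over all of these genes, is under 0.05, and only called genes are said to rise or fall. Secretory transcripts filled much of each intact library and fell after castration, so the scaling matters here: with library totals alone the median change of all genes was 0.80 and 0.73 at 3 d and 1.31 and 1.15 at 10 d (folic acid and control diet). With TMM factors these medians were 0.01, -0.01, 0.07 and 0.05. Every rise or fall below is relative to that bulk of genes, and with library totals alone 26 of the 43 calls made on members against intact mice change sign. In a whole tissue, fewer cells of a type and less RNA per cell cannot be told apart.

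The tissue label was checked against marker genes. Secretory transcripts of the prostate were abundant in every intact library, at 680224 to 1105810 summed CPM on the folic acid diet and 730313 to 823189 on the control diet, while 7 seminal vesicle genes summed to at most 1.76 CPM in any library. The TMM factors of intact libraries, 0.55 to 0.75, raise their CPM, so the secretory sums are not shares of all reads. A few libraries stood apart. Control intact replicate 2 had 4662 summed CPM of 10 skeletal muscle genes, against 99.4 to 169 in the other control intact libraries, and folic acid intact replicate 3 had 413 summed CPM of 10 smooth muscle genes, against 1842 to 2159 in its group. Folic acid 10 d replicates 2 and 3 had 3256 and 575 CPM of the same smooth muscle genes, against 1337 and 1705 in the others. Low smooth muscle sums also occurred in folic acid 3 d replicate 2 (601 CPM, against 1298 to 1728 in its group), control 10 d replicate 1 (707, against 1451 to 1756) and control 3 d replicate 4 (846, against 1763 and 1811), which were kept. Calls were recomputed without the first 4 of these libraries. Of the calls made on members against intact mice, 31 held and 12 were lost. Member counts in this setting are given only for 10 d on the folic acid diet, and counts of other lists where they moved.

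The promoters of members show which carry CACGTG, the letters that TFEB is known to read. RefSeq (GRCm38.p6) promoter windows, 250 bases before to 50 after the start site, were at hand for 34 of the 43 members. The motif, which reads the same on both strands, stood in 13 of the 34 (38.2%), against 2187 of 27025 genes with a window (8.09%). The longer form TCACGTGA, which contains CACGTG, stood in 6 of the 34 (17.6%), against 304 of all (1.12%). The windows below are those of members the results turn on, with CACGTG in capitals: 2 members that fell (Atp6v0d1 and Naglu), 1 that rose (Ctsl), 2 that were not called (Lamp1 and Atp6v1a), and Atp6v1c2, which fell furthest and holds no such motif.
Atp6v1c2 (chr12:17324681-17324980, minus strand): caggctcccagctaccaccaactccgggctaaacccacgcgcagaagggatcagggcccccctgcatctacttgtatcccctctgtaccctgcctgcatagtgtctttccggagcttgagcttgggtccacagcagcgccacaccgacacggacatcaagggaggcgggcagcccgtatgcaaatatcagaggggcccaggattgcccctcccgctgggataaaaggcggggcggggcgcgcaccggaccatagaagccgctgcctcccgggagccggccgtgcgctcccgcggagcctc
Atp6v0d1 (chr8:105566015-105566314, minus strand): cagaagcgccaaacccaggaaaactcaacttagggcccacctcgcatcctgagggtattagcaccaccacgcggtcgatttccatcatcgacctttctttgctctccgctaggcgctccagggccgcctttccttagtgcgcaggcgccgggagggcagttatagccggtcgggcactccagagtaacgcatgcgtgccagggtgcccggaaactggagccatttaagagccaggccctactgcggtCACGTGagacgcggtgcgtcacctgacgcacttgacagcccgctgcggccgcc
Naglu (chr11:101069844-101070143, plus strand): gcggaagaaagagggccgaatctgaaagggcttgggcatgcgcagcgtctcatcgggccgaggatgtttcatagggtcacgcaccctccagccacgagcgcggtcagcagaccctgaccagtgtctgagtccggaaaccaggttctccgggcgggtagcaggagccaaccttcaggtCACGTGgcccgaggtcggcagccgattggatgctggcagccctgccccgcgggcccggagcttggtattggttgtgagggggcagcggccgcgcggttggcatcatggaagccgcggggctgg
Ctsl (chr13:64370471-64370770, minus strand): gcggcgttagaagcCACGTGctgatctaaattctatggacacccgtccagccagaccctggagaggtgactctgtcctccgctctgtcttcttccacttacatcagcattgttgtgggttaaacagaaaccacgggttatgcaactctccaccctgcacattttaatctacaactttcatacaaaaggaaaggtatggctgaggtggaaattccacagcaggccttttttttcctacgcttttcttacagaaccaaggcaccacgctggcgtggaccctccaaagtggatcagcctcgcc
Lamp1 (chr8:13158911-13159210, plus strand): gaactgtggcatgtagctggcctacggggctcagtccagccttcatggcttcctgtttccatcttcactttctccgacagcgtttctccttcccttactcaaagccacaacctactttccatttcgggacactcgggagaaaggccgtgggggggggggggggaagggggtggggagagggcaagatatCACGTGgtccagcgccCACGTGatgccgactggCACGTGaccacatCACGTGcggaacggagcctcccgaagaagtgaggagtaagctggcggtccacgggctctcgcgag
Atp6v1a (chr16:44139210-44139509, minus strand): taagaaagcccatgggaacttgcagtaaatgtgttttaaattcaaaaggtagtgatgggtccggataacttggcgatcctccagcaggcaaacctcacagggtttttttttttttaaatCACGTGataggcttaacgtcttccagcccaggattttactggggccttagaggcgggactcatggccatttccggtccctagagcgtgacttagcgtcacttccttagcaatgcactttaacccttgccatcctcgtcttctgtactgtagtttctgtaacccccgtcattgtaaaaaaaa
Lamp1 held the motif 4 times, beginning 61, 45, 28 and 15 bases before its start site, while in Atp6v0d1 it began 3 bases before the start and in Naglu 73. The Ctsl copy lay 236 bases before the start and that of Atp6v1a 131. As GENCODE draws the genes, the start sites used for Atp6v1c2, Naglu, Ctsl and Atp6v1a lie inside the gene, downstream of its outermost start, that of Lamp1 is the outermost start, and that of Atp6v0d1 lies just upstream of it. Of the members with a window, the motif was present in 4 of the 13 that fell at 10 d on either diet, in 1 of 1 that rose and in 8 of 20 that were not called.

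After castration a minority of the members changed in each comparison, and with all libraries the pump held most of the falls. At 10 d on the folic acid diet some calls were lost without the 4 libraries that stood apart. Among them were the falls of the pump genes Atp6v0a1, Atp6v0a2, Atp6v0d1, Atp6v1d and Atp6v1e1. On the folic acid diet at 3 d 1 of the 42 tested members rose and 8 fell, 2.38% and 19.0%, against 6.07% and 8.27% of all genes (either way 21.4%, against 14.3%). On the control diet at 3 d 3 rose and 2 fell, 7.14% and 4.76%, against 3.83% and 6.15% (either way 11.9%, against 9.98%). By 10 d the folic acid diet had 3 rises and 14 falls, 7.14% and 33.3%, against 10.2% and 11.7% (either way 40.5%, against 21.9%). The control diet had 4 rises and 8 falls, 9.52% and 19.0%, against 7.15% and 9.45% (either way 28.6%, against 16.6%). The median change over members was -0.24 and -0.03 at 3 d and -0.20 and -0.11 at 10 d (folic acid and control diet). The 3 d and 10 d comparisons of a diet share its intact libraries. The diets share none, and 32 of 42 members had the same sign on both at 10 d.

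The split between rises and falls rests on the scaling. With library totals alone 22 members were called higher and 1 lower at 3 d on the folic acid diet, and 25 and 1 on the control diet. At 10 d these counts were 34 and 1 on the folic acid diet and 32 and 1 on the control diet. The 1 lower member in each was Atp6v1c2. Without the 4 libraries that stood apart, 8 members were called at 10 d on the folic acid diet (2 higher, 6 lower) in place of 17. That fit lacked folic acid 10 d replicates 2 and 3 and folic acid intact replicate 3. Whether calls were lost through the smaller number of libraries was not tested. Leaving out single libraries gave 6 to 9 calls at 3 d and 12 to 16 at 10 d on the folic acid diet, and 9 to 11 at 10 d on the control diet. For control mice at 3 d it gave 1 to 4 in place of 5. The count was 1 when control intact library 3 was omitted, 2 when control intact library 2 or control 3 d library 4 was, and 3 when control intact library 1 or 4 or control 3 d library 1 was. These counts can hold members not among the 5, of which only Atp6v1c2 was called whichever library was omitted.

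**Figure D1:**
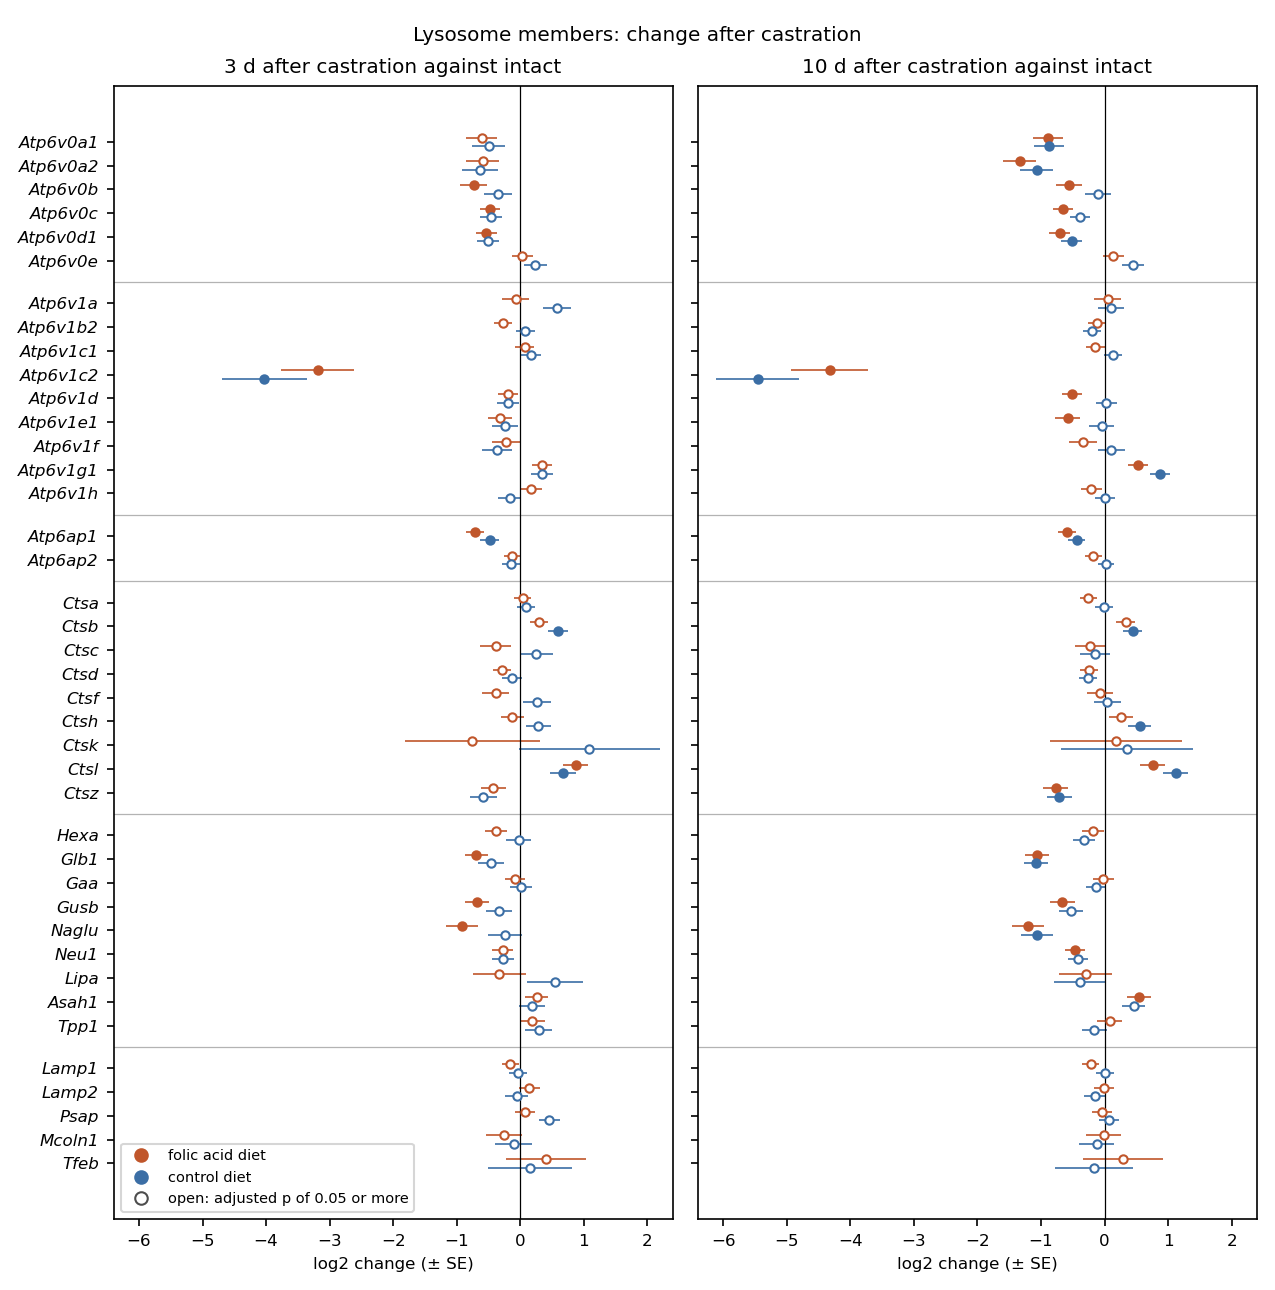
Log2 change after castration of 40 members (x axis, ± SE) at 3 d (left) and 10 d (right), one row per member, with the folic acid diet above the control diet and filled points for adjusted p under 0.05. Atp6v1c2 stands alone at -3.19 to -5.46, the V0 subunits lie mostly below 0, and Ctsl and Atp6v1g1 lie above 0 on both diets (Atp6v0a4, Atp6v0d2 and Atp6v1b1, with few reads, are not drawn).

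The largest change of any member was in a single pump isoform. Atp6v1c2 (chr12:17284721-17329359, minus strand, mm10) encodes the C2 form of subunit C, which holds the V1 sector to its stalk and is known mainly from kidney and lung, whereas Atp6v1c1 encodes the broadly used C1 form. On the folic acid diet Atp6v1c2 stood at 52.1, 48.3, 44.0 and 45.6 CPM in the intact state, 2.29, 7.61, 6.25 and 4.77 at 3 d and 2.71, 4.01, 0.856 and 1.70 at 10 d. In control mice it stood at 28.1, 44.6, 64.2 and 55.5 CPM in the intact state, 3.86, 4.76 and 0.0884 at 3 d and 0.390, 1.31, 1.90 and 0.590 at 10 d. No castrated library reached the lowest intact library of its diet, and the lowest value of all was 1 read. The log2 change was -3.19 ± 0.58 (SE, adjusted p = 0.000781) at 3 d and -4.33 ± 0.61 (SE, adjusted p = 3.33e-05) at 10 d on the folic acid diet. On the control diet it was -4.02 ± 0.68 (SE, adjusted p = 0.000408) at 3 d and -5.46 ± 0.66 (SE, adjusted p = 4.63e-06) at 10 d.

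Atp6v1c1 was not called, at -0.15 on the folic acid diet and 0.13 on the control diet at 10 d, and averaged 70.1 ± 10.3 CPM at 10 d against 77.5 ± 10.4 in intact mice on the folic acid diet. The ratio of the isoforms within a library does not depend on any scaling between libraries. For every 100 Atp6v1c1 reads there were 61.8 ± 5.76 Atp6v1c2 reads in intact mice, 6.33 ± 2.43 at 3 d and 3.57 ± 2.60 at 10 d on the folic acid diet (SD, n = 4 each). In control mice there were 68.3 ± 19.4, 3.59 ± 3.01 and 1.42 ± 1.06 (SD, n = 4, 3 and 4). Per kilobase of exon, Atp6v1c2 averaged 21.8 ± 1.64 CPM in intact mice on the folic acid diet and 22.1 ± 7.17 on the control diet, above the Atp6v1c1 level of 13.8 ± 1.85 and 12.5 ± 0.634. This order rests on the length of all annotated exons, 2174 and 5601 bases, and the lengths used in counting are not known here. In reads the order was the reverse, as the ratios above show. At 10 d the Atp6v1c2 level per kilobase was 1.07 ± 0.626 on the folic acid diet and 0.482 ± 0.319 on the control diet. The gene's exons share 50 bases with Pdia6 on the other strand, 2.30% of their length, and whether counting used strand is not given in the sources used here.

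**Figure D2:**
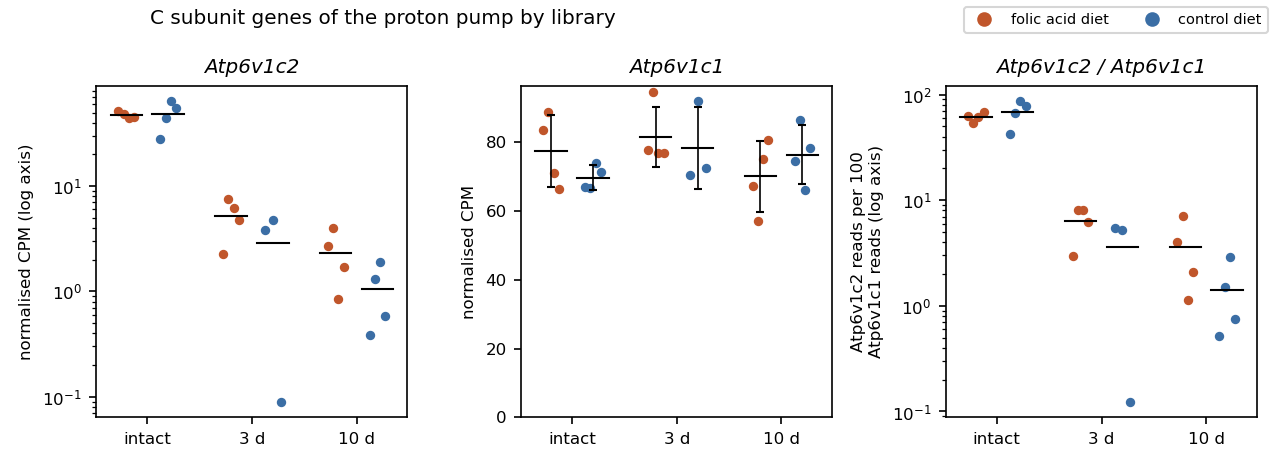
Normalised CPM of Atp6v1c2 (left, log axis) and Atp6v1c1 (middle), and Atp6v1c2 reads per 100 Atp6v1c1 reads (right, log axis), for each library by state, with the folic acid diet left of the control diet, bars for group means and, in the middle panel, ± SD. Atp6v1c2 stands at 28.1 to 64.2 CPM in all intact libraries and at 7.61 or less in all castrated ones, while the groups of Atp6v1c1 overlap.

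In the V0 sector, with all libraries, most of the subunits in wide use fell by 10 d on the folic acid diet. Of its 6 such genes 3 fell at 3 d and 5 at 10 d on the folic acid diet, and 0 and 3 on the control diet. Of all genes 8.27% and 11.7% fell on the folic acid diet, and 6.15% and 9.45% on the control diet. None of the 6 rose. With library totals alone their called changes at 10 d were positive except for Atp6v0a2 on the folic acid diet. Their median change at 10 d was -0.68 and -0.45, beside 0.07 and 0.05 for all genes. DESeq2 also called Atp6v0d1 at 3 d on the control diet (-0.48, adjusted p = 0.0424). Subunit a, which forms the path of the protons, has several isoforms. Atp6v0a2 (chr5:124628576-124724455), known from Golgi membranes, stood on the folic acid diet at 16.3, 9.91, 10.3 and 18.8 CPM at 10 d against 32.6, 21.4, 35.8 and 50.8 in intact libraries. On the control diet it stood at 17.0, 12.8, 19.3 and 16.3 CPM at 10 d against 40.4, 37.2, 39.2 and 20.5. All 10 d libraries lay below all intact libraries of their diet, while at 3 d the groups overlapped. The log2 change at 10 d was -1.34 ± 0.27 (SE, adjusted p = 0.000369) on the folic acid diet and -1.07 ± 0.26 (SE, adjusted p = 0.00386) on the control diet.

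Atp6v0a1 (chr11:101009452-101063719), the isoform best known from neurons, fell by a similar step. It stood at 23.7, 29.7, 16.5 and 24.4 CPM at 10 d against 38.0, 42.1, 48.7 and 46.2 in intact libraries on the folic acid diet, and at 22.8, 14.5, 33.6 and 20.2 against 50.1, 40.2, 43.7 and 33.7 on the control diet, with no overlap. Its log2 change at 10 d was -0.89 ± 0.24 (SE, adjusted p = 0.00701) on the folic acid diet and -0.88 ± 0.24 (SE, adjusted p = 0.00874) on the control diet. Atp6v0d1 (chr8:105524465-105566047), which couples the rotor to the membrane ring, stood at 54.2, 37.1, 50.1 and 52.0 CPM at 10 d against 76.2, 103, 71.9 and 64.5 in intact libraries on the folic acid diet, and at 57.4, 57.5, 59.1 and 55.6 against 92.6, 88.5, 80.6 and 67.6 on the control diet. The 10 d values lay below the intact values on both diets, with log2 changes of -0.71 ± 0.16 (SE, adjusted p = 0.0015) and -0.52 ± 0.16 (SE, adjusted p = 0.0211). The control call did not hold once control intact library 1 or 2, or control 10 d library 4 was omitted (adjusted p up to 0.0808). Without the 4 libraries that stood apart, Atp6v0a1, Atp6v0a2 and Atp6v0d1 were not called at 10 d on the folic acid diet (-0.80, -0.98 and -0.62, adjusted p = 0.103, 0.0598 and 0.0528).

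The proton-carrying ring itself is built from the products of Atp6v0c and Atp6v0b. Atp6v0c stood at 80.4, 93.9, 74.1 and 89.5 CPM at 10 d against 141, 156, 111 and 123 in intact libraries on the folic acid diet, where it fell, without overlap, by 0.65 ± 0.16 (SE, adjusted p = 0.0029) on the log2 scale. On the control diet it stood at 114, 91.7, 86.1 and 94.3 CPM at 10 d against 143, 131, 129 and 100.5, with overlap and a log2 change of -0.38 ± 0.16 (SE, adjusted p = 0.0956). Atp6v0b averaged 66.6 ± 8.40 CPM at 10 d against 98.3 ± 25.1 in intact mice on the folic acid diet, a log2 change of -0.56 ± 0.21 (SE, adjusted p = 0.0483). That call did not hold once folic acid intact library 2 or 3, or folic acid 10 d library 1, 2, 3 or 4 was omitted (adjusted p up to 0.209). In control mice it averaged 73.3 ± 29.6 CPM against 79.0 ± 13.7 and was not called. The 3 d call of Atp6v0b on the folic acid diet did not hold once folic acid intact library 2 was omitted (adjusted p = 0.0939). That of Atp6v0c did not hold once folic acid intact library 1 or 2, or folic acid 3 d library 2, 3 or 4 was omitted (adjusted p up to 0.164). That of Atp6v0d1 did not hold once folic acid intact library 2, or folic acid 3 d library 1, 3 or 4 was omitted (adjusted p up to 0.155). Atp6v0e, a small subunit, had log2 changes of 0.14 and 0.45 at 10 d (folic acid and control diet) and was called in no comparison.

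Calls were fewer among the V1 genes in wide use, a difference that was not tested. Apart from Atp6v1c2 and the sparse Atp6v1b1, 8 of its genes were tested, of which none was called at 3 d, 1 rose and 2 fell at 10 d on the folic acid diet, and 1 rose on the control diet. Over all genes 10.2% rose and 11.7% fell at 10 d on the folic acid diet, and 7.15% and 9.45% on the control diet. The V1 gene that rose on both diets was Atp6v1g1 (chr4:63544772-63550750), a subunit of the outer stalk. It stood at 122, 107, 138 and 138 CPM at 10 d against 92.4, 97.9, 87.4 and 71.8 in intact libraries on the folic acid diet, and at 152, 199, 123 and 124 against 76.8, 85.6, 74.1 and 88.9 on the control diet. Every 10 d library lay above every intact library of its diet, and the log2 change was 0.53 ± 0.16 (SE, adjusted p = 0.0173) and 0.88 ± 0.16 (SE, adjusted p = 0.000164). The folic acid call did not hold once folic acid intact library 4 was omitted (adjusted p = 0.0581). The pair that fell on the folic acid diet were Atp6v1d, part of the rotor, at -0.51 ± 0.16 (SE, adjusted p = 0.0209) and Atp6v1e1, another stalk subunit, at -0.58 ± 0.20 (SE, adjusted p = 0.0313). The Atp6v1d call did not hold once folic acid intact library 2 or 3, or folic acid 10 d library 2 was omitted (adjusted p up to 0.101). The Atp6v1e1 call did not hold once folic acid intact library 1 or 2, or folic acid 10 d library 2 or 3 was omitted (adjusted p up to 0.15). Without the 4 libraries that stood apart, none of these 3 was called on the folic acid diet (adjusted p = 0.0895, 0.287 and 0.335). In control mice Atp6v1d and Atp6v1e1 were at 0.03 and -0.05, not called.

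The catalytic subunit gene Atp6v1a, whose product binds and splits ATP, was not called in any comparison by edgeR with TMM factors. On the folic acid diet it stood at 91.6, 59.2, 60.4 and 84.5 CPM in the intact state, 70.0, 80.7, 65.9 and 64.7 at 3 d and 84.9, 67.4, 107 and 47.0 at 10 d. The control diet values were 78.4, 63.6, 59.3 and 67.1 CPM in the intact state, 63.4, 115 and 122 at 3 d and 68.8, 55.2, 83.7 and 80.2 at 10 d. All groups overlapped, with log2 changes of 0.05 and 0.10 at 10 d (folic acid and control diet). Its partner Atp6v1b2 and the regulator Atp6v1h were also uncalled, at -0.12 and -0.21 on the folic acid diet and -0.20 and 0.01 on the control diet, as was Atp6v1f at -0.34 and 0.11.

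Of the accessory proteins, Atp6ap1, needed to assemble the pump, was called lower in all 4 comparisons with intact mice. It averaged 156 ± 7.45, 95.2 ± 10.2 and 104 ± 14.0 CPM in intact, 3 d and 10 d mice on the folic acid diet, and 144 ± 4.88, 104 ± 20.9 and 106 ± 8.75 on the control diet (SD, n = 4 libraries a group, 3 for control 3 d). The log2 change at 10 d was -0.59 ± 0.14 (SE, adjusted p = 0.00241) on the folic acid diet and -0.44 ± 0.14 (SE, adjusted p = 0.0262) on the control diet, and with library totals alone it was 0.65 and 0.66. The 10 d call on the control diet did not hold once control intact library 1 or 3, or control 10 d library 2 or 3 was omitted (adjusted p up to 0.0834). The 3 d call on that diet did not hold once control intact library 1, 2, 3 or 4, or control 3 d library 1 or 4 was omitted (adjusted p up to 0.278). Atp6ap2, known as the prorenin receptor, was at -0.17 and 0.03 and was not called.

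The pump isoforms known from kidney, epididymis or bone had few reads. Atp6v0a4, the isoform of acid-secreting kidney cells, had 0 reads in each of 4 control intact libraries and 20, 22 and 9 in the 3 control 3 d libraries, a level at least 15.7-fold higher than that of 3 reads over the intact group. It was called there (adjusted p = 0.0374) and is counted among the rises at 3 d on the control diet. With 119 reads over all libraries, it passed the filter in part through the group it was called in. The call was lost without any 1 of the 7 libraries (adjusted p up to 0.0893), and on the folic acid diet the gene's levels overlapped. Atp6v1b1 had at most 27 reads and Atp6v0d2 at most 11.3 in any library. Of 7 genes that mark acid-secreting clear or intercalated cells, 3 had no read and only Slc26a4, an anion exchanger, was tested. It fell by 2.16 ± 0.21 (SE, adjusted p = 3.07e-09) on the log2 scale at 10 d on the folic acid diet and by 1.67 ± 0.20 (SE, adjusted p = 2.31e-07) on the control diet. The list summed to 27.9 to 71.8 CPM at 10 d against 225 to 286 in intact libraries on the folic acid diet, and to 61.7 to 99.1 against 196 to 274 on the control diet. With only Slc26a4 past the filter, this sum cannot stand for those cells as a type. It was lower at 10 d, as was Atp6v1c2, and a link between these falls was not tested.

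Within each library the V0 sector was set against V1, a contrast chosen after the values were seen. The mean log2 CPM of the 6 V0 genes in wide use minus that of the 8 such V1 genes was -0.03 ± 0.13, -0.45 ± 0.27 and -0.52 ± 0.19 in intact, 3 d and 10 d mice on the folic acid diet. On the control diet it was -0.04 ± 0.21, -0.41 ± 0.24 and -0.58 ± 0.14 (SD, n = 4, 3 and 4). The 10 d libraries did not overlap the intact ones on either diet, with -0.78 to -0.38 against -0.17 to 0.14 on the folic acid diet and -0.72 to -0.44 against -0.34 to 0.14 on the control diet, whereas at 3 d they did. A difference taken within a library hardly depends on the scaling between libraries, and no test was made of it because the members were chosen with results known.

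**Figure D3:**
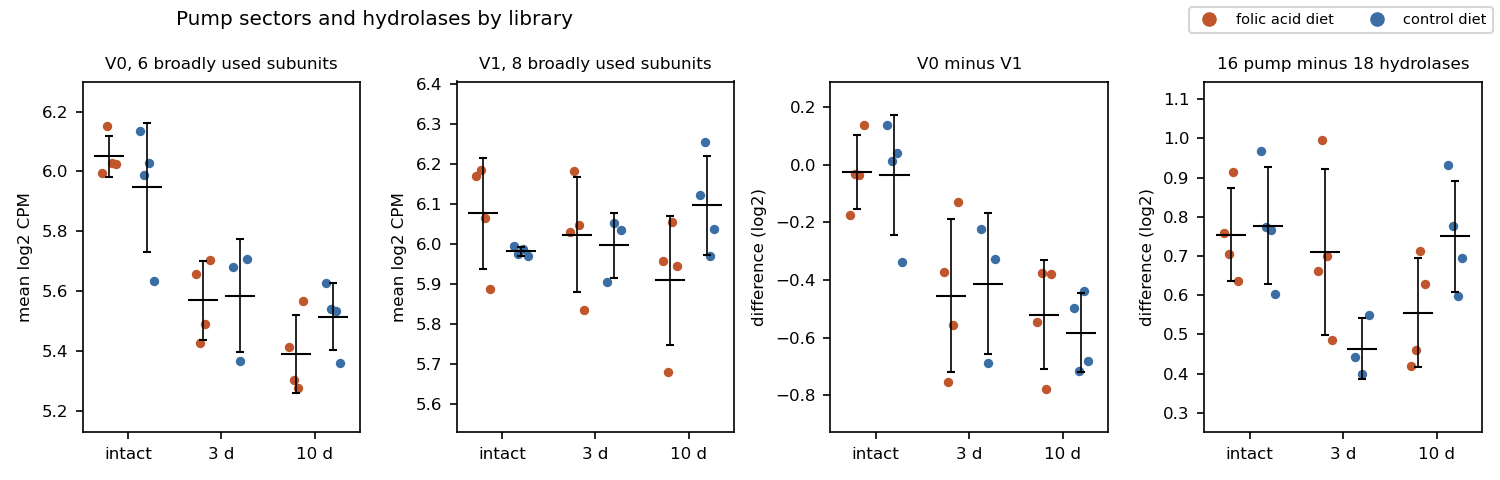
Mean log2 CPM per library of the 6 V0 and the 8 V1 genes in wide use, their difference, and the mean of the 16 pump genes in wide use minus that of 18 hydrolases, by state, with the folic acid diet left of the control diet and bars for mean ± SD. V0 minus V1 lies between -0.34 and 0.14 in intact libraries and between -0.78 and -0.38 at 10 d, while the pump minus hydrolase values of intact and castrated libraries overlap except at control 3 d.

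The cathepsins, the lysosome's proteases, had calls in both directions. Of 9 tested, 1 rose and 1 fell at 10 d on the folic acid diet, and 3 rose and 1 fell on the control diet, with medians of -0.07 and 0.04. Of all genes 10.2% rose and 11.7% fell on the folic acid diet, close to 1 of 9 each way, and 7.15% and 9.45% on the control diet. Among the cathepsins, the rise with the smallest p was that of Ctsl (chr13:64359337-64370890), a cysteine endopeptidase. On the folic acid diet it stood at 216, 241, 194 and 185 CPM in the intact state, 336, 429, 403 and 362 at 3 d and 425, 177, 424 and 387 at 10 d. Control libraries held 199, 185, 161 and 162 CPM in the intact state, 279, 295 and 272 at 3 d and 345, 513, 345 and 333 at 10 d. Every castrated library lay above every intact library of its diet except folic acid 10 d replicate 2, which lay below all of them. The log2 change was 0.87 ± 0.20 (SE, adjusted p = 0.00224) at 3 d and 0.76 ± 0.19 (SE, adjusted p = 0.00482) at 10 d on the folic acid diet, and 0.67 ± 0.21 (SE, adjusted p = 0.0343) and 1.12 ± 0.20 (SE, adjusted p = 7.84e-05) on the control diet. The 3 d call on the control diet did not hold once control intact library 2, 3 or 4, or control 3 d library 1, 3 or 4 was omitted (adjusted p up to 0.0979).

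Ctsd, an aspartic protease, had the highest level per kilobase of the cathepsins in intact mice, 174 ± 9.02 CPM on the folic acid diet and 169 ± 15.4 on the control diet, and was not called. On the folic acid diet it stood at 384, 410.1, 436 and 408 CPM in the intact state, 320.2, 346, 309 and 366 at 3 d and 378, 315, 266 and 424 at 10 d. Its control diet values were 427, 413, 401 and 344 CPM in the intact state, 410.0, 328 and 351 at 3 d and 290.3, 363, 349 and 321 at 10 d. The log2 change at 10 d was -0.24 on the folic acid diet and -0.26 on the control diet. Within a library, Ctsl reads per 100 Ctsd reads averaged 51.2 ± 7.35 in intact mice, 114 ± 15.01 at 3 d and 105 ± 43.2 at 10 d on the folic acid diet. In control mice they averaged 44.7 ± 3.18, 78.4 ± 11.0 and 116 ± 19.2 (SD, n = 4, 3 and 4). At 10 d on the folic acid diet 2 of the 4 libraries had fewer Ctsl than Ctsd reads, at 56.3 and 91.3, and the other two had 113 and 160.

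Ctsz, a carboxypeptidase, was the cathepsin that fell. It stood at 27.7, 39.0, 33.3 and 31.1 CPM at 10 d against 60.3, 64.5, 47.7 and 50.2 in intact libraries on the folic acid diet, and at 25.1, 30.1, 33.8 and 39.4 against 53.5, 48.7, 50.9 and 58.1 on the control diet, without overlap. The log2 change was -0.77 ± 0.20 (SE, adjusted p = 0.00503) and -0.72 ± 0.20 (SE, adjusted p = 0.0101), and with library totals alone it was 0.50 and 0.39. Ctsh, an aminopeptidase, and Ctsb rose at 10 d on the control diet, by 0.55 ± 0.18 (SE, adjusted p = 0.0343) and 0.44 ± 0.15 (SE, adjusted p = 0.032) on the log2 scale, and were at 0.26 and 0.33 on the folic acid diet, not called. Ctsh stood at 65.9, 107, 54.9 and 61.3 CPM at 10 d against 56.0, 49.99, 50.6 and 40.7 in intact libraries on the control diet, with overlap. The Ctsh call did not hold once control intact library 2, 3 or 4, or control 10 d library 2 was omitted (adjusted p up to 0.271). The Ctsb call did not hold once control intact library 2, 3 or 4, or control 10 d library 1, 2 or 3 was omitted (adjusted p up to 0.116). At 3 d on the control diet Ctsb was at 0.59 ± 0.16 (SE, adjusted p = 0.0114). This call did not hold once control intact library 3, or control 3 d library 1 was omitted (adjusted p up to 0.0702). Ctsb shares 12.8% of its exon length with Fdft1 on the other strand. Ctsa, Ctsc and Ctsf were not called, and Ctsk, known from bone-resorbing cells, had at most 54 reads in a library.

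Of the 9 other hydrolases, 4 fell and 1 rose at 10 d on the folic acid diet, and 2 fell on the control diet, with medians of -0.30 and -0.38. Over all genes 11.7% fell and 10.2% rose on the folic acid diet, and 9.45% fell and 7.15% rose on the control diet. The pair of these hydrolases that fell on both diets degrade glycans. Glb1 (chr9:114401076-114474898), is the acid beta-galactosidase. Folic acid diet libraries had 76.2, 67.5, 64.8 and 67.4 CPM of it when intact, 44.2, 38.6, 51.0 and 37.3 at 3 d and 47.1, 21.8, 28.04 and 35.1 at 10 d. Control diet libraries had 60.9, 50.6, 65.5 and 64.4 CPM in the intact state, 38.8, 45.6 and 47.0 at 3 d and 23.7, 25.7, 33.2 and 31.7 at 10 d. At both times every castrated library lay below every intact one of its diet. Glb1 shares 5.49% of its exon length with Tmppe on the same strand. The log2 change at 10 d was -1.06 ± 0.19 (SE, adjusted p = 8.2e-05) on the folic acid diet and -1.08 ± 0.19 (SE, adjusted p = 6.89e-05) on the control diet.

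Naglu (chr11:101070012-101077672), which takes part in the breakdown of heparan sulfate, lies next to Atp6v0a1 on chromosome 11. Its folic acid diet values were 17.9, 18.2, 21.4 and 19.5 CPM in the intact state, 9.85, 9.54, 8.17 and 13.3 at 3 d and 9.18, 8.26, 6.84 and 9.07 at 10 d. In mice on the control diet it stood at 16.4, 10.5, 19.9 and 20.2 CPM in the intact state, 11.9, 14.98 and 15.9 at 3 d and 10.4, 6.34, 7.12 and 8.25 at 10 d. The 10 d libraries lay below the intact ones on both diets, narrowly on the control diet, and the 3 d libraries only on the folic acid diet. The log2 change at 10 d was -1.20 ± 0.25 (SE, adjusted p = 0.000658) and -1.06 ± 0.25 (SE, adjusted p = 0.00254). With library totals alone the 10 d changes of Glb1 were 0.16 and 0.03 and those of Naglu 0.05 on both diets, so both kept about their share of all reads.

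Gusb, the beta-glucuronidase known as an androgen-induced enzyme of mouse kidney, was called on the folic acid diet and missed the threshold on the control diet, where DESeq2 (-0.53, adjusted p = 0.0441) and a fit on only the groups compared (-0.54, adjusted p = 0.0386) called it. It stood at 29.9, 29.1, 31.8 and 25.1 CPM at 10 d against 44.7, 42.1, 50.2 and 46.5 in intact libraries on that diet, and at 32.3, 29.3, 29.4 and 21.5 against 48.9, 44.9, 31.6 and 37.0 on the control diet. The folic acid groups did not overlap and the control groups did, with log2 changes of -0.66 ± 0.19 (SE, adjusted p = 0.0119) and -0.53 ± 0.19 (SE, adjusted p = 0.0543). The sialidase Neu1 fell by 0.46 ± 0.16 (SE, adjusted p = 0.0364) on the log2 scale on the folic acid diet, standing at 49.2, 40.8, 63.4 and 58.4 CPM at 10 d against 62.6, 86.5, 88.9 and 53.8, with overlap. On the control diet it stood at 48.0, 50.9, 49.2 and 43.6 CPM against 62.5, 67.0, 70.0 and 56.0, without overlap but not called, at -0.41 ± 0.16 (SE, adjusted p = 0.0761). A fit on only the groups compared called it there (-0.42, adjusted p = 0.0285). Asah1, the acid ceramidase, rose to 59.2, 53.2, 48.8 and 65.9 CPM at 10 d, against 35.0, 30.3, 42.6 and 48.5 in intact libraries, on the folic acid diet, a log2 change of 0.54 ± 0.19 (SE, adjusted p = 0.0339), and was at 0.46 ± 0.18 (SE, adjusted p = 0.0905) on the control diet. The Gusb call at 3 d on the folic acid diet did not hold once folic acid 3 d library 2 was omitted (adjusted p = 0.0737). The Neu1 call did not hold once folic acid intact library 2 or 3, or folic acid 10 d library 1 or 2 was omitted (adjusted p up to 0.152). The Asah1 call did not hold once folic acid intact library 1 or 2, or folic acid 10 d library 1 or 4 was omitted (adjusted p up to 0.13). Without the 4 libraries that stood apart, Gusb and Neu1 were not called (adjusted p = 0.093 and 0.329). Hexa, Gaa, Lipa and Tpp1, whose enzymes act on gangliosides, glycogen, neutral lipids and peptides, were not called, with log2 changes between -0.38 and 0.08 at 10 d.

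**Figure D4:**
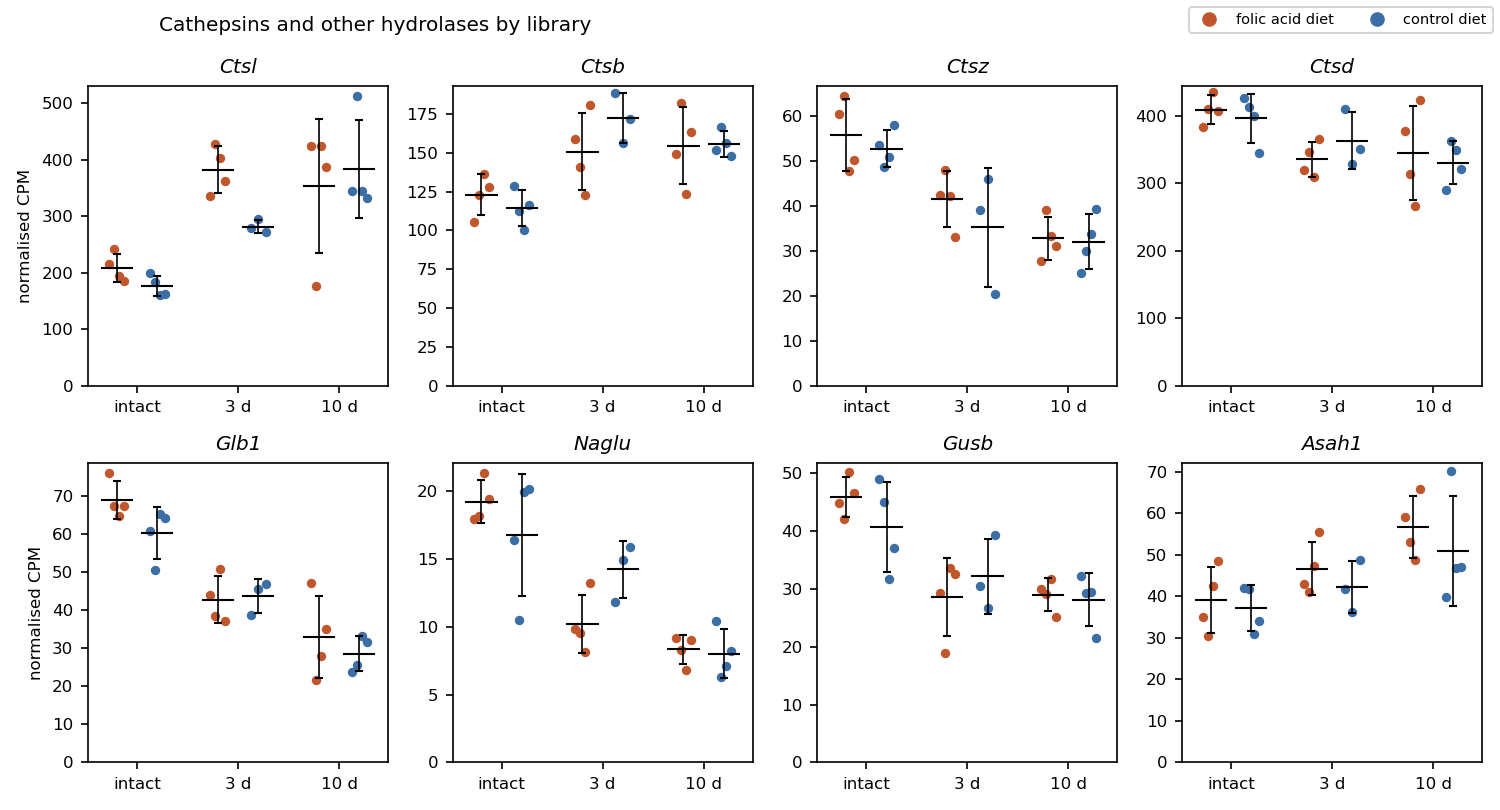
Normalised CPM of 4 cathepsins (top) and 4 other hydrolases (bottom) in each library by state, with the folic acid diet left of the control diet and bars for mean ± SD. Ctsl is higher after castration except in 1 folic acid 10 d library at 177 CPM, Glb1 lies lower at both times on both diets, and Ctsd overlaps between castrated and intact libraries except at 3 d on the folic acid diet.

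None of the 5 membrane, activator and regulator genes was called in any comparison by edgeR with TMM factors. Lamp1, the main glycoprotein of the lysosomal membrane, had the highest level per kilobase of any member in intact mice, 230.3 ± 9.14 CPM on the folic acid diet and 202 ± 12.8 on the control diet. On the folic acid diet it stood at 615, 648, 612 and 589 CPM in the intact state, 547, 576, 594 and 493 at 3 d and 559.6, 451, 539 and 571 at 10 d. Control libraries stood at 537, 551, 577 and 495 CPM in the intact state, 517, 535 and 529 at 3 d and 524, 631, 493 and 524 at 10 d. The folic acid 10 d libraries lay below the intact ones of that diet, and the other castrated groups overlapped the intact libraries of their diet. The log2 change at 10 d was -0.22 on the folic acid diet and 0.01 on the control diet. Lamp1 shares 9.31% of its exon length with Grtp1 on the other strand. Lamp2, its relative, was at -0.01 and -0.15, Psap, the precursor of the saposins that aid lipid breakdown, at -0.04 and 0.07, and the calcium channel Mcoln1 at -0.01 and -0.12. At 3 d on the control diet every library had more Psap than any intact one, at 0.46 ± 0.17 (SE, adjusted p = 0.0893), and DESeq2 (0.48, adjusted p = 0.0212) and a fit on only the groups compared (0.48, adjusted p = 0.04) called it. Tfeb, the transcription factor, was scarce. Folic acid libraries had 3.69, 6.21, 0.848 and 2.30 CPM of it when intact, 4.49, 3.85, 4.33 and 4.96 at 3 d and 6.64, 4.41, 0.0951 and 5.00 at 10 d. Control libraries had 2.94, 7.00, 2.85 and 4.96 CPM when intact, 5.15, 3.69 and 6.01 at 3 d and 2.53, 6.57, 2.46 and 4.26 at 10 d, and castrated and intact libraries overlapped throughout. Its log2 change at 10 d was 0.29 ± 0.62 and -0.17 ± 0.62 (SE), so changes of about 1 log2 unit could not be told from none at this depth.

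Setting the pump against the hydrolases gave a small and uneven difference. At 10 d 52.6% of the 19 tested pump members were called on the folic acid diet and 38.9% of the 18 hydrolases, beside 21.9% of all genes. On the control diet these shares were 31.6% and 33.3%, beside 16.6%. The pump's calls were 1 rise and 9 falls on the folic acid diet and 1 and 5 on the control diet, the hydrolases' 2 and 5 and 3 and 3. Of all genes 10.2% rose and 11.7% fell on the folic acid diet, and 7.15% and 9.45% on the control diet. The folic acid calls were fewer without the 4 libraries that stood apart, as given above. The median change at 10 d was -0.34 for the pump and -0.20 for the hydrolases on the folic acid diet, and 0.01 and -0.15 on the control diet. Within libraries, the mean log2 CPM of pump members minus that of hydrolases was -0.14 ± 0.11, -0.26 ± 0.16 and -0.40 ± 0.08 in intact, 3 d and 10 d mice on the folic acid diet, and -0.15 ± 0.10, -0.49 ± 0.13 and -0.36 ± 0.16 on the control diet. The sparse isoforms and Atp6v1c2 weigh on this mean. With the 16 pump genes in wide use alone it was 0.75 ± 0.12, 0.71 ± 0.21 and 0.56 ± 0.14 on the folic acid diet and 0.78 ± 0.15, 0.46 ± 0.08 and 0.75 ± 0.14 on the control diet, so the control 10 d value returned to within the spread of intact mice.

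No member was called between the diets. With folic acid set against control diet, 0 of 42 members were called in intact mice (0.0522% of all genes), at 3 d (0.0671%), at 10 d (0.119%) and for the mean over the states (0.35%). At an unadjusted p under 0.05 the edgeR test had 1, 3, 1 and 1 member, and DESeq2 called 0 in each. The lowest adjusted p for the mean over states was 0.627, for Lipa, the acid lipase. The interaction of diet with castration had 0 members called at 3 d (0% of all genes) and 10 d (0.0149%), with 3 and 1 at an unadjusted p under 0.05 and 0 by DESeq2. So the calls made on one diet only, such as Gusb or Ctsb, are not shown to differ between diets.

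Between 10 d and 3 d, too, 0 members were called on the folic acid diet (0.634% of all genes) and the control diet (0.35%), with 4 and 9 at an unadjusted p under 0.05 and 0 by DESeq2. The lowest adjusted p was 0.215 for Atp6v0a2 on the folic acid diet and 0.225 for Naglu on the control diet. With library totals alone 11 and 7 members were called in these comparisons.

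**Figure D5:**
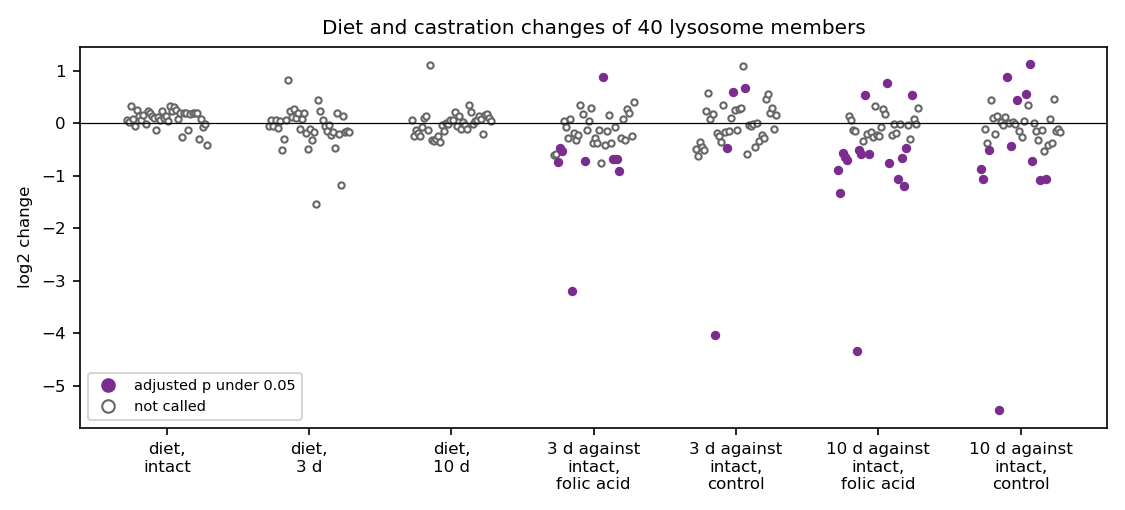
Log2 changes of 40 members (y axis, 1 point each) in the 3 comparisons of folic acid with control diet and the 4 of castrated with intact mice, with filled points for adjusted p under 0.05. No diet point is filled, while 9, 4, 17 and 12 are filled in the castration comparisons, Atp6v1c2 lowest in each (Atp6v0a4, called at control 3 d, Atp6v0d2 and Atp6v1b1 are not drawn).

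Lysosomal genes outside the 43 are given by their counts of calls, beside shares over all genes at 10 d of 10.2% rises and 11.7% falls on the folic acid diet and 7.15% and 9.45% on the control diet. These lists were not refitted with library totals. Of 36 further hydrolases tested, 5 rose and 5 fell at 10 d on the folic acid diet, and 3 rose and 5 fell on the control diet, or 13.9% and 13.9% (folic acid diet) and 8.33% and 13.9% (control diet), with medians of 0.06 and 0.05. Ctss, a cathepsin known from antigen-presenting cells, rose by 1.93 ± 0.25 (SE, adjusted p = 1.52e-06) and 1.53 ± 0.24 (SE, adjusted p = 3.2e-05) on the log2 scale (folic acid and control diet). The sulfatase genes went apart, with Ids rising by 0.91 and 0.71 and Arsb at -0.81 and -1.41, lower on both diets. Without the 4 libraries that stood apart the further hydrolases had 3 rises and 0 falls at 10 d on the folic acid diet, and 3 and 6 on the control diet. Of 7 further pump genes 0 rose and 1 fell on each diet at 10 d, Rnasek, a pump-associated membrane protein, at -1.05 and -0.65.

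The calls among other lysosomal membrane genes were mostly falls. Of 25 tested 0 rose and 6 fell at 10 d on the folic acid diet, and 1 rose and 7 fell on the control diet, or 0% and 24.0% (folic acid diet) and 4% and 28% (control diet), with medians of -0.29 and -0.16. With the 4 libraries that stood apart left out there were 0 rises on either diet, and 4 and 7 falls. The nucleoside transporter Slc29a3 was at -0.94 and -1.13, the iron transporter Slc11a2 at -1.21 and -1.24, and the cystine transporter Ctns at -0.75 and -1.12, all called on both diets. Of 24 genes that sort and deliver hydrolases, 1 rose and 3 fell on the folic acid diet and 0 rose and 5 fell on the control diet, or 4.17% and 12.5% (folic acid diet) and 0% and 20.8% (control diet). With those 4 left out there were 0 rises and 2 falls, and 0 and 3. Among them were Igf2r, the mannose 6-phosphate receptor that carries hydrolases to the lysosome, at -1.02 ± 0.16 (SE, adjusted p = 1.31e-05) and -1.23 ± 0.16 (SE, adjusted p = 5.81e-07), and its adaptor Gga2 at -1.16 and -1.28. Of 21 regulators 3 rose and 3 fell on the folic acid diet and 3 rose and 1 fell on the control diet, or 14.3% and 14.3% (folic acid diet) and 14.3% and 4.76% (control diet). Leaving out the 4 libraries gave 2 rises and 1 fall, and 3 and 1. Fnip1 and Fnip2, partners of folliculin, both rose, Fnip1 by 1.24 and 0.89 and Fnip2 by 0.87 and 1.24 (folic acid and control diet), while Rragd, a GTPase that ties TFEB to the lysosome, fell, at -1.22 and -1.22.

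Lysosomal genes are expressed by most cells and at high level by macrophages, whose markers moved with castration. Over all genes, 6.07% and 3.83% rose at 3 d and 10.2% and 7.15% at 10 d (folic acid and control diet). Falls made up 8.27% and 6.15% of all genes at 3 d and 11.7% and 9.45% at 10 d. Of the 23 macrophage genes listed in the files, 22 were tested, and 5 and 7 rose at 3 d and 9 and 6 at 10 d (folic acid and control diet), and none fell. When the 4 libraries were left out, 3 and 10 rose at 3 d and 7 and 9 at 10 d. Their summed level was 174 to 379 CPM at 10 d against 105 to 122 in intact libraries on the folic acid diet, and 183 to 219 against 104 to 141 on the control diet, with none of the 23 genes at 0 in all libraries. Folic acid 10 d replicate 2, the library with the lowest Ctsl of its group, had the highest macrophage sum, 379 CPM. Of 10 luminal epithelial genes 0 rose and 4 fell (3 without the 4 libraries) at 10 d on the folic acid diet, and 3 rose and 3 fell on the control diet. They summed to 3792 to 4872 CPM at 10 d against 4152 to 6015 in intact libraries on the folic acid diet, and 4321 to 4922 against 4383 to 4511 on the control diet. Of 10 fibroblast genes 3 rose and 1 fell at 10 d on the folic acid diet, and 2 rose and 2 fell on the control diet, with Lum, a matrix proteoglycan, at 3.61 and 2.87 and Col1a1, a collagen chain, at -1.38 and -2.67. Leaving the 4 libraries out, they had 2 rises and 1 fall, and 2 and 4. None of 10 smooth muscle genes was called at either time, but without the 4 libraries 4 and 1 fell at 3 d and 1 and 1 at 10 d (folic acid and control diet). Of 4 tested osteoclast markers none was called. The part of these cell types in the members' changes was not tested.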

How the data were processed

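Per the labels' protocols, RNA of each ventral prostate was selected with oligo-dT beads, primed with random hexamers and sequenced. The tools bcl2fastq (2.17.1.14), RSEM (1.2.3), Bowtie (0.12.9) and the build mm10 are listed, per the submitters' processing notes. No source used here gives annotation or strand setting. The authors deposited expected counts per gene, of which 19.5% were not whole, and these were rounded. 1 column without a sample label was not used.

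Counts of 20308 genes (3398 with no count) were filtered with edgeR 4.0.16 (minimum count 10, minimum total 15) in R 4.3.3. The 13412 genes left were scaled by TMM and tested in 1 fit over all 6 groups with robust quasi-likelihood dispersions (biological coefficient of variation 0.364) and Benjamini-Hochberg adjustment, calling at 0.05. Log2 CPM used a prior count of 2. The procedure was also run on simulated counts, drawn with the fitted spread from 1 profile shared by all libraries, apart from genes changed on purpose. Without the fall of secretory transcripts, that run cannot test the scaling. Libraries held 6.38 M to 15.6 M reads, which limits precision for genes with few reads, and no pair correlated above 0.960. All members may be named; per-library values go to those with the largest called changes at 10 d and a few fixed genes, and further lists give up to 4 genes with the smallest p at 10 d. The members and lists were chosen with earlier results of these data known. Alternatives were other scalings, no filter, DESeq2 1.42.0, a replicate block, only the groups compared, and leaving libraries out. Exon lengths and positions are from GENCODE M21 (GRCm38).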

Additional observations from a re-analysis of the deposited data

Results flagged for a closer look

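Among 90 sets of values (a named member in a group of 4 libraries), 3 held 1 library far from the rest, where chance flags about 1 in 20. Atp6v0a2 was at 20.5 CPM in control intact replicate 4, against 37.2 to 40.4 CPM in the other control intact libraries. Replicate 2 of the folic acid 10 d group held 177 CPM of Ctsl, against 387 to 425 CPM in the rest of its group. Ctsl was at 513 CPM in control 10 d replicate 2, against 333 to 345 CPM in the other control 10 d libraries. The Ctsl calls at 10 d held when any 1 library was left out, at log2 changes of 0.66 to 0.98 on the folic acid diet and 0.95 to 1.18 on the control diet, and so did those of Atp6v0a2, at -1.52 to -1.11 and -1.25 to -0.97.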

How the results depend on the processing

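Scaling had the largest effect. With library totals 23 and 26 members were called at 3 d and 35 and 33 at 10 d (folic acid and control diet), and 11 and 7 between 10 d and 3 d. These calls changed sign at 3 d on the folic acid diet: Atp6ap1 0.0685, Atp6v0b 0.0889, Atp6v0c 0.33, Atp6v0d1 0.27, Glb1 0.0806 and Gusb 0.11. At 3 d on the control diet Atp6ap1 was at 0.26. At 10 d on the folic acid diet Atp6ap1 was at 0.65, Atp6v0a1 0.38, Atp6v0b 0.70, Atp6v0c 0.61, Atp6v0d1 0.54, Atp6v1d 0.73, Atp6v1e1 0.68, Ctsz 0.50, Glb1 0.16, Gusb 0.58, Naglu 0.0475 and Neu1 0.79. At 10 d on the control diet Atp6ap1 was at 0.66, Atp6v0a1 0.24, Atp6v0a2 0.0427, Atp6v0d1 0.58, Ctsz 0.39, Glb1 0.0331 and Naglu 0.0489. By construction library totals keep the shift of the median of all genes, and no other setting changed a sign.

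Without the 4 libraries that stood apart 8 members were called at 10 d on the folic acid diet, a fit on fewer samples. DESeq2 called 9 and 7 at 3 d and 17 and 13 at 10 d (folic acid and control diet). Leaving out 1 library gave 6 to 9 and 1 to 4 calls at 3 d and 12 to 16 and 9 to 11 at 10 d, and pump minus hydrolase differences of -0.19 to -0.05 and -0.41 to -0.28 at 3 d and -0.31 to -0.22 and -0.28 to -0.15 at 10 d. Deviations of same-numbered libraries from their group means had r from -0.15 to 0.24 (55 pairs, median 0.01, 5 over 0.1). Differently numbered libraries were not compared, so this cannot decide whether the numbers mark pairs. They were not taken as pairs. With the replicate block 9 and 5 members were called at 3 d and 16 and 12 at 10 d, and Atp6v0b at 10 d on the folic acid diet passed no longer (adjusted p = 0.0529). The mean diet effect and the interactions were not run on only the groups compared. Depth limits Atp6v0a4, Atp6v0d2, Atp6v1b1, Ctsk and Tfeb.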
